A study of Mus musculus with 4 samples.

Results

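The genes described here encode the hemidesmosome, the junction that fastens basal keratinocytes to the basement membrane, and laminin-332, the basement membrane protein to which it binds. There are 9 of them, among 13674 named genes on the arrays. The members were chosen by name with their knockout over wildtype ratios in these same arrays already known, so the ratios below are a description and carry no test. A probe set was taken when the platform annotation gave it exactly 1 gene symbol and that symbol was Itga6, Itgb4, Col17a1, Lama3, Lamb3, Dst, Plec, Cd151 or Itga3. This gave 16 probe sets, 13 for 8 genes on the first of the array types used (type 1) and 3, all for Dst, on the other (type 2).

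In the epidermis, integrin alpha 6 and integrin beta 4 pair into the receptor at the core of the hemidesmosome. Collagen XVII spans the membrane beside it, dystonin (in its epithelial form) and plectin tie both to the keratin filaments inside the cell, and the tetraspanin Cd151 associates with the laminin-binding integrins. Outside the cell the receptor holds laminin-332, a protein of several chains, the alpha 3 and beta 3 chains among them, and loss of several of these proteins causes skin blistering in humans and mice. Integrin alpha 3 also binds laminin-332, paired with integrin beta 1 instead of beta 4. Several of these genes are best known from basal keratinocytes, but they are not confined to them. For example, dystonin and plectin also act in muscle and nerve, and integrin alpha 6 is present on endothelial and Schwann cells.

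The samples were total RNA from whole skin of FVB/N mice at postnatal day 0. One group was loricrin knockout, lacking the main protein of the cornified envelope in the outermost epidermis, and the other was wildtype. Each genotype had 2 arrays, 1 on each array type, and the types carry different probe sets. No member was measured on both types, so every member ratio compares 1 knockout array with 1 wildtype array and has no replicate error. The labels do not say how many animals gave RNA to an array, or how the knockout allele was made.

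Some facts of the arrays bear on every ratio below. Signals are MAS5 intensity values on a linear scale, brought to a common trimmed mean within each type. For the ratios, values under a floor of 77.6 (type 1) or 133 (type 2) were raised to it. Single and summed signals are printed without that step, so the sums include signals below the floor. The brighter loricrin (Lor) probe set of type 1 had a signal of 2013 in knockout and 41224 in wildtype skin, while no loricrin probe set is listed for type 2. For Xist, the RNA of the inactive X chromosome, type 1 gave 857 in knockout and 24.7 in wildtype skin, and for the Y-linked Eif2s3y it gave 42.7 in knockout and 1071 in wildtype. The brighter type 2 probe set of Kdm5d, also Y-linked, gave 12.2 in knockout and 976 in wildtype. Sex and genotype therefore cannot be told apart here. The ratio of 3′ to 5′ signal of the beta-actin control was 2.63 in knockout and 2.16 in wildtype for type 1, and 2.76 and 2.31 for type 2. The same ratio of the Gapdh control was 1.15 in knockout and 1.14 in wildtype for type 1, and 1.18 and 1.07 for type 2.

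Promoter sequence is shown for 2 of the genes that were higher in knockout and for 1 whose brighter probe sets hardly differed, because the members divided in this way. The windows run 5′ to 3′ on the gene's strand, from 250 bases before an annotated RefSeq transcription start to 50 after it (build GRCm38.p6). They are Col17a1 at chr19:47691993-47692292 on the minus strand, Lamb3 at chr1:193301744-193302043 on the plus strand, the more 5′ of its 2 annotated starts, and Cd151 at chr7:141467112-141467411 on the plus strand, likewise. Capitals mark matches to a TATA box (TATAAA), an AP-1 site (TGANTCA) or an AP-2 site (GCCNNNGGC), each sought on both strands.
Col17a1: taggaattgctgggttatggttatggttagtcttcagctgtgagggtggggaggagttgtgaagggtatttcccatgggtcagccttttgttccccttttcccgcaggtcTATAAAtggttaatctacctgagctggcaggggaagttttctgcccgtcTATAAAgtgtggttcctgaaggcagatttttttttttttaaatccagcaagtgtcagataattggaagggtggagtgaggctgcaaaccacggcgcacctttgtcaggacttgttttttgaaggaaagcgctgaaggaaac
Lamb3: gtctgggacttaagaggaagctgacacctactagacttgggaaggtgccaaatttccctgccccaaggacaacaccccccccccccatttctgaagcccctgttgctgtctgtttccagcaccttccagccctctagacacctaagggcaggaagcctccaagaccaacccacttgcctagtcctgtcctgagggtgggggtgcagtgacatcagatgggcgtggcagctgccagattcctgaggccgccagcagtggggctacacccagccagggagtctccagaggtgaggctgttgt
Cd151: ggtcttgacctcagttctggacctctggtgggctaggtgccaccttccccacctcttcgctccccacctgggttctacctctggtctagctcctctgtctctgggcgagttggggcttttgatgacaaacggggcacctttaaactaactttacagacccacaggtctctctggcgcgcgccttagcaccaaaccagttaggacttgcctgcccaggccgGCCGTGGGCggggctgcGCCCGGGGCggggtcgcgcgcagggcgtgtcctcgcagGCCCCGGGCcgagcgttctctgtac

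The Col17a1 window held 2 matches to TATAAA, which began 140 and 91 bases before the start. Among all 32851 windows of this length in the table, 13.6% held at least 1 such match. The Lamb3 window held none of these motifs and no GC box (GGGCGG). The Cd151 window held 3 AP-2 matches, a motif found in 16.6% of all windows, and 2 GC boxes that overlap them, a motif found in 35.7%. AP-1 matches, found in 7.81% of all windows, were absent from the printed windows, and the more 3′ start of Itga3 had 1. GC content was 46.3% for Col17a1, 59.3% for Lamb3 and 64.3% for Cd151, against a median of 52.7% over all windows. Promoters were matched by symbol for 5 of the 9 members, and a match here is a run of letters, not a site shown to be bound.

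Counted over probe sets, 4 of the 13 on type 1 were at least 2-fold higher in knockout skin and none was 2-fold lower. They belonged to 3 genes, Itga6, Col17a1 and Lamb3. Over the 7394 probe sets of that type with a mean signal above the floor, 1.39% passed 2-fold upwards and 1.77% downwards. Because the genes were picked with these ratios in view, that background is given for scale only. Of the 13 probe sets, 12 had a mean signal above the floor and their median log2 ratio was 0.40, where that of all 7394 was 0.014. None of the 3 Dst probe sets on type 2 passed 2-fold, where 2.34% of 7298 did so upwards and 2.88% downwards. The plot of paired signals shows each probe set in both genotypes.

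**Figure D1:**
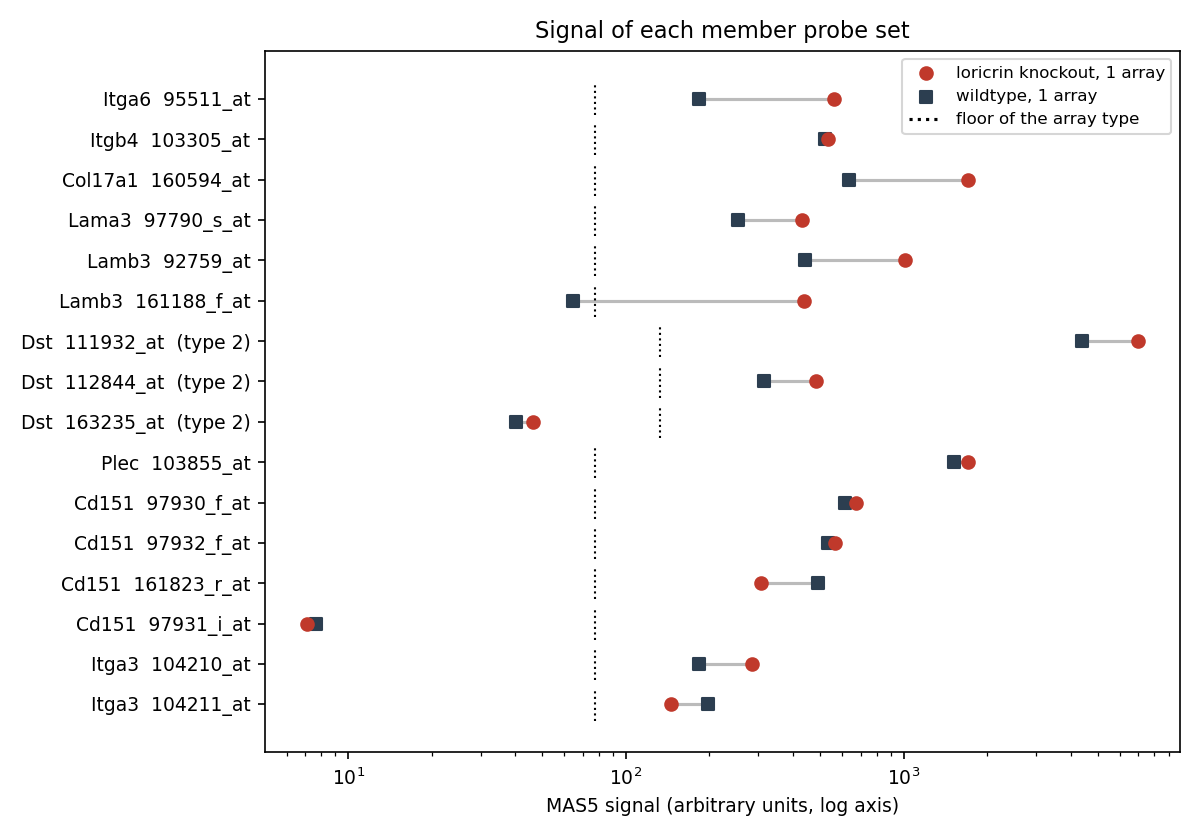
MAS5 signal (log axis, arbitrary units) of the 16 member probe sets in the loricrin knockout array (circles) and the wildtype array (squares), joined by a line, with the floor of the array type dotted. The widest gaps belong to Lamb3, Itga6 and Col17a1, the 2 genotypes nearly coincide for Itgb4, Plec and a pair of Cd151 probe sets, and 1 probe set each of Dst and Cd151 lies below the floor in both.

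Among the receptor genes, the subunits of the alpha 6 beta 4 integrin differed from each other. Itga6, the alpha 6 subunit, read 560 in knockout and 183 in wildtype skin, a ratio of 3.06 (log2 ratio 1.62). It was the 15th highest log2 ratio among the 7394 probe sets of the type. Itgb4, the beta 4 subunit, read 536 in knockout and 521 in wildtype skin, a ratio of 1.03 (log2 ratio 0.041), and ranked 3471. The ratio for Itga6 was thus 2.98 times that for Itgb4 on the same pair of arrays. As a difference of log2 ratios this gap was 1.57, and it lay between 1.19 and 1.61 over the processing settings described in the closing section. The gap does not depend on a factor shared by all probe sets of an array, since such a factor cancels in it.

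The other laminin receptor subunit, integrin alpha 3 (Itga3), gave different answers on its 2 probe sets. Probe set 104210_at read 285 in knockout and 183 in wildtype, a ratio of 1.56, while 104211_at read 145 and 197, a ratio of 0.737. Neither passed 2-fold, and their log2 ratios of 0.64 and -0.44 lay on opposite sides of 0. No direction is therefore given for Itga3. With the floor at the 60th percentile 104210_at had a log2 ratio of 0.26 and 104211_at one of 0.

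Cd151, the tetraspanin partner of these integrins, was measured by 4 probe sets, all with suffixes that mark shared or irregular probes. The brightest, 97930_f_at, read 676 in knockout and 615 in wildtype, a ratio of 1.10. The next, 97932_f_at, read 565 and 536, a ratio of 1.06. The 161823_r_at probe set read 308 in knockout and 492 in wildtype, a ratio of 0.625 in the other direction. The last, 97931_i_at, read 7.09 and 7.69, below the floor in both. The gene thus had 2 probe sets with ratios near 1 and 1 lower in knockout that did not pass 2-fold.

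Collagen XVII (Col17a1), the transmembrane collagen of the hemidesmosome also known as BP180, read 1702 in knockout and 635 in wildtype skin. Its ratio of 2.68 (log2 ratio 1.42) was the 22nd highest on the type. Both signals were far above the floor of 77.6, and the log2 ratio lay between 1.32 and 1.42 under every setting except spike-in scaling, where it was 2.11.

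The plakins, which link the receptor to keratin filaments, showed smaller ratios. Plec, encoding plectin, read 1699 in knockout and 1517 in wildtype skin, a ratio of 1.12 (log2 ratio 0.16). Its log2 ratio lay 1.26 below that of Col17a1 on the same arrays. Dst, encoding dystonin, whose epithelial form is the hemidesmosomal BP230, was measured on type 2 only. Its brightest probe set, 111932_at, read 6991 in knockout and 4382 in wildtype, a ratio of 1.60, and 112844_at read 485 and 315, a ratio of 1.54. The log2 ratios of these Dst probe sets, 0.67 and 0.62, were close to each other. The remaining probe set, 163235_at, read 46.2 in knockout and 40.3 in wildtype, both below the floor. Of the 7298 probe sets ranked on type 2, 93.1% and 91.7% had lower log2 ratios than the brighter and the dimmer Dst probe set. The annotation does not say which dystonin or plectin isoforms the probe sets detect.

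Of the laminin-332 chains on the arrays, the beta 3 chain passed 2-fold in knockout skin and the alpha 3 chain did not. Lamb3, the beta 3 chain, read 1009 in knockout and 440 in wildtype on 92759_at, a ratio of 2.29 (log2 ratio 1.20). Its other probe set, 161188_f_at, read 438 in knockout and 64.6 in wildtype. The wildtype signal lay below the floor, so this probe set was at least 5.64-fold higher, and its suffix marks probes shared by a sequence family. Both Lamb3 probe sets thus passed 2-fold in the same direction. With the floor at the 60th percentile the log2 ratio of 161188_f_at was 0.88, short of 2-fold, while 92759_at kept 1.20.

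Lama3, the alpha 3 chain, read 430 in knockout and 253 in wildtype, a ratio of 1.70 (log2 ratio 0.77). It did not pass 2-fold, and 97.0% of the probe sets of the type had a lower log2 ratio. Its only probe set, 97790_s_at, carries a suffix for shared sequence.

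**Figure D2:**
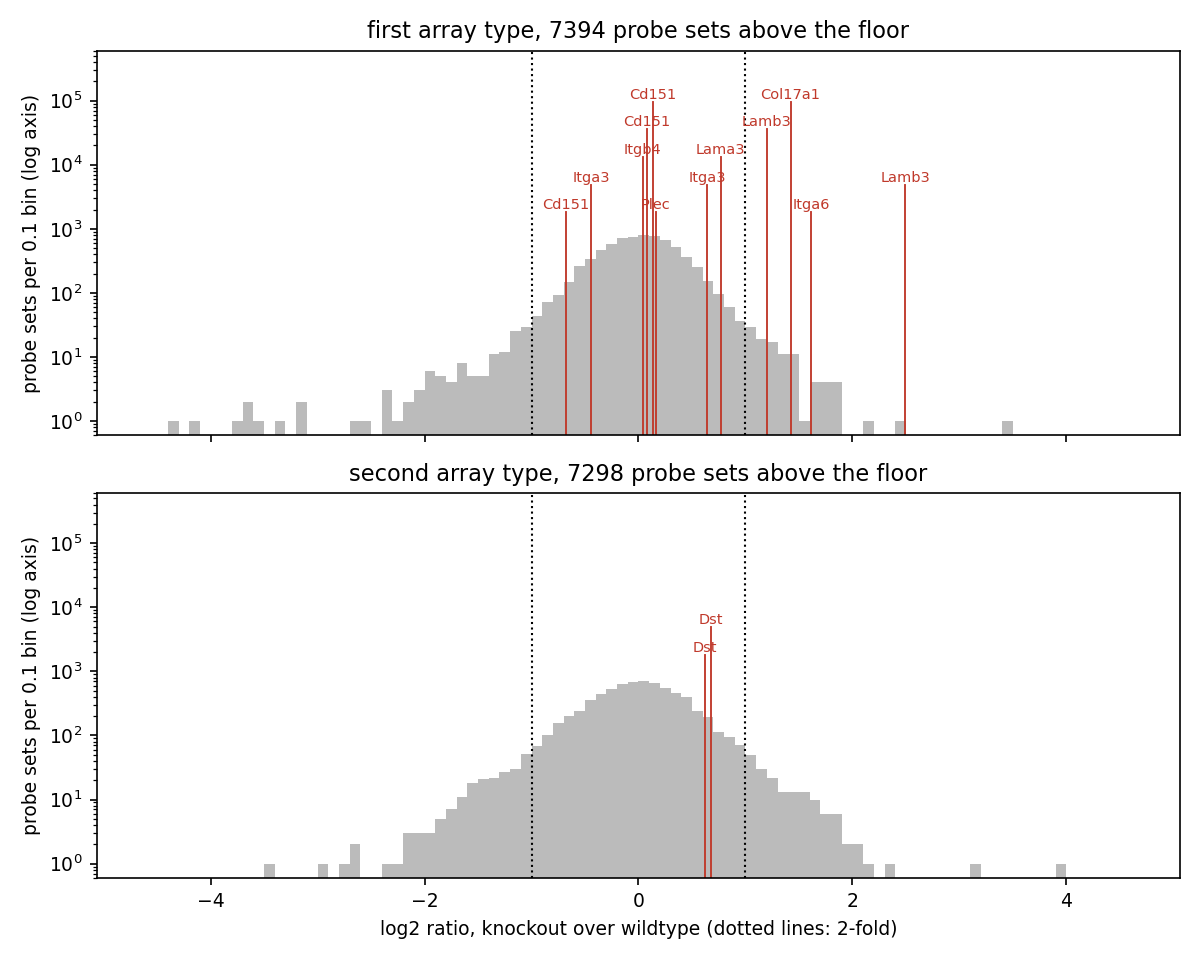
Log2 ratios of knockout over wildtype for all probe sets with a mean signal above the floor (grey, counts on a log axis) on the first (top) and second (bottom) array type, with the 14 member probe sets above the floor as red lines and the 2-fold limits dotted. The Lamb3, Itga6 and Col17a1 lines lie beyond the upper limit, those of Dst, Lama3 and 1 probe set of Itga3 between 0.62 and 0.77, and the rest between -0.68 and 0.16.

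The directions above are relative to the typical probe set of an array. The 9 bacterial spike-in probe sets averaged a log2 ratio of -0.69 (type 1) and -0.65 (type 2), and when they set the scale the median over all probe sets above the floor became 0.69 and 0.64. Under that scaling Itga6 stood at 2.30, Col17a1 at 2.11 and Lamb3 at 1.88 on 92759_at, and Lama3, the brighter Itga3 probe set and both Dst probe sets passed 2-fold as well. Itgb4 moved to 0.73, close to the shifted median. A pair of log2 ratios changed sign under it, that of Cd151 161823_r_at, to 0.0099, and that of Itga3 104211_at, to 0.25. The medians of the gene lists below shift upwards with it too. The plot of log2 ratios by setting shows the shift beside the other settings.

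**Figure D3:**
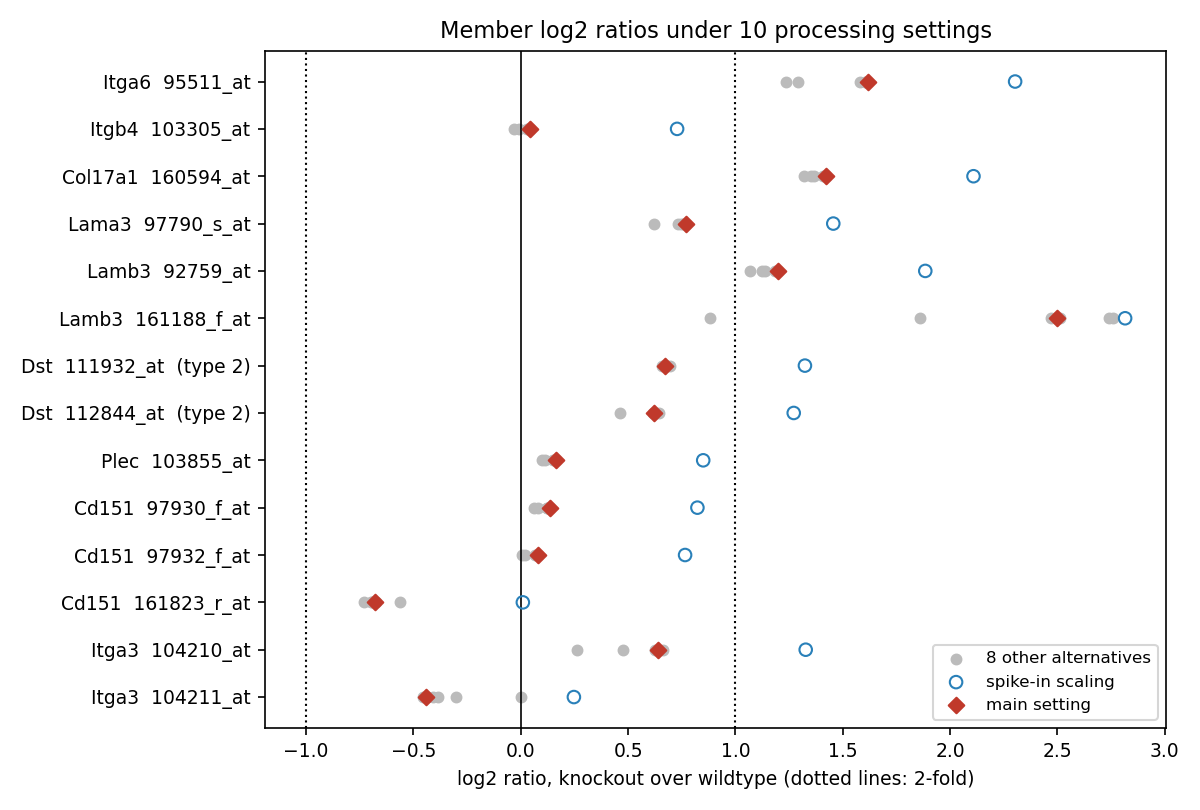
Log2 ratio of knockout over wildtype of the 14 member probe sets above the floor under the main setting (diamonds), spike-in scaling (open circles) and the 8 other scalings and floors (grey). Itga6, Col17a1 and Lamb3 92759_at stay to the right of the 2-fold line under all 10 settings, Lamb3 161188_f_at drops below it under 1, and Itgb4 stays near 0 except under spike-in scaling.

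Other genes of the dermal-epidermal junction were read from a list of basement membrane partners, with 1 probe set per gene, the brightest. On type 1, where 17 were measured, 11 had a mean signal above the floor. Of these, 3 were at least 2-fold higher in knockout and 1 was lower, with a median log2 ratio of 0.38 that lay between 0 and 1.07 over the settings. Hspg2, the proteoglycan perlecan, read 203 in knockout and 80.1 in wildtype (ratio 2.54), where the wildtype signal was just above the floor. Lama5, the laminin alpha 5 chain of the epidermal basement membrane, read 418 and 190 (ratio 2.20). Col7a1, the collagen of the anchoring fibrils that fasten the basement membrane to the dermis, read 1732 and 836 (ratio 2.07). The lower gene was Lama4, a laminin chain of vessel walls, which read 57.5 in knockout, below the floor, and 156 in wildtype, and so was at least 2.01-fold lower. The partners short of 2-fold lay on both sides of 0. Log2 ratios were negative for Col4a2 (-0.38), Lamb1 (-0.32) and Col4a1 (-0.044). They were positive for Agrn (0.45), Lamb2 (0.42), Col4a5 (0.38) and Lamc1 (0.25).

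Of 8 partners measured on type 2, 5 were above the floor, with a median log2 ratio of 0.79 where that of all probe sets was 0.0038. Over the settings the partners' median lay between 0.35 and 1.44. Those at least 2-fold higher were Frem2 and Fras1, whose products form a complex at the embryonic basement membrane. Frem2 read 441 in knockout and 156 in wildtype (ratio 2.83), and Fras1 read 1965 and 902 (ratio 2.18). None of the 5 was 2-fold lower. With the floor at the 60th percentile, 2 of the 6 partners past 2-fold on either type stayed past it, Fras1 at 1.12 and Col7a1 at 1.05, while Frem2 (0.50), Lama5 (0.81), Hspg2 (0) and Lama4 (0) did not. With the floor value as a pseudocount, 1 of the 6 stayed past it, Fras1 at 1.02, with Frem2 and Col7a1 at 0.99, Lama5 at 0.89, Hspg2 at 0.83 and Lama4 at -0.79. Col7a1 stood at 0.98 under quantile normalization and 0.99 under loess, just short of 2-fold. Lama4 was also short of it under quantile normalization (-0.98), loess (-0.97) and spike-in scaling (-0.64).

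Integrin and focal contact genes outside the hemidesmosome showed no ratio of that size. Of 12 above the floor on type 1 and 2 on type 2, none passed 2-fold in either direction, and the medians were -0.020 and -0.17. Itgb1, which pairs with integrin alpha 3, read 3311 in knockout and 2933 in wildtype (ratio 1.13). The tetraspanin Cd9 had a log2 ratio of -0.23. On type 2 Erbin, a binding partner of integrin beta 4, stood at -0.44 and the actin-linked Parva at 0.11.

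Markers of the skin's cell types moved beside these ratios. In bulk skin, fewer cells of a type and less RNA per cell cannot be told apart. Among basal keratinocyte markers, 6 of the 10 measured on type 1 were above the floor and 3 of these were at least 2-fold higher. They were the receptor Fgfr2 (1986 in knockout, 751 in wildtype), the transcription factor Trp63 (1906 and 913) and the Notch ligand Dll1 (214 and 45.3, at least 2.76-fold). The other 3 had log2 ratios of 0.33 (Cdh3), 0.18 (Itgb1) and -0.11 (Egfr). The list median was 0.70, and it lay between 0.25 and 1.38 over the settings. The summed signal of the list was 8493 in knockout and 5580 in wildtype. Without Fgfr2 the other 9 genes summed to 6507 and 4829. The defining basal keratins Krt5 and Krt14 were below the floor in both arrays of that type, so it gives no check of basal cells from them. Trp63 and Fgfr2 kept 2-fold with the floor at the 60th percentile, at 1.06 and 1.40, and Dll1 did not. On type 2 none of the 3 basal markers passed 2-fold, with Krt15 at a log2 ratio of 0.25, Egfr at 0.29 and Sox6 at 0.67. The summed signals of 28227 in knockout and 23469 in wildtype were mostly Krt15, which read 26582 and 22304. The other 2 genes summed to 1645 and 1164.

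Suprabasal markers summed to 116518 in knockout and 167227 in wildtype on type 1, and to 138549 and 153807 on type 2. None of the 11 and 7 above the floor passed 2-fold, with median log2 ratios of -0.47 and -0.17. The brightest were Calm4 (-0.69) and Krtdap (-0.58) on type 1 and Sbsn (-0.17) and Cnfn (-0.08) on type 2. The lists did not move as one. Tgm3 (0.60), Krt2 (0.25), Krt77 (0.21) and Elf3 (0.068) were higher in knockout on type 1. Tgm3 (0.29) and Krt77 (0.19) were higher on type 2, and all remaining suprabasal markers of both types were lower. Under spike-in scaling the list medians were positive, at 0.22 and 0.48.

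Most dermal fibroblast markers above the floor were lower in knockout. Of 15 above the floor on type 1, 11 were at least 2-fold lower and none higher, with summed signals of 6096 in knockout and 14343 in wildtype. The list median was -1.94, and it lay between -1.96 and -1.27 over the settings. The largest differences were Col3a1 (at least 12.6-fold lower), Col1a1 (log2 ratio -3.17), Eln (at least 8.71-fold), Bgn (5.72-fold), Col6a3 (5.02-fold) and Twist2 (4.96-fold). Markers that did not pass 2-fold on type 1 are named here after their values were seen. The proteoglycan gene Dcn read 2462 in knockout and 2556 in wildtype (log2 ratio -0.054). Col1a2 had a log2 ratio of 0.0070 and Pdgfra one of 0.53. Col5a1 was lower in knockout, with a log2 ratio of -0.83. With the floor at the 60th percentile, 8 of the 12 markers past 2-fold on either type stayed past it, and Twist2 (-0.73), Col6a2 (-0.69) and Lum (-0.33) on type 1 did not. Under spike-in scaling 10 of the 12 did, with Col6a1 at -0.99. On type 2 the 1 marker above the floor, Col14a1, was at least 2.41-fold lower, short of 2-fold under spike-in scaling (-0.91) and under a 60th percentile floor (-0.039). The part of these shifts in cell type markers in the member ratios was not tested.

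Markers of other cells that can carry integrin alpha 6, plectin or dystonin were read in the same way. Endothelial markers summed to 756 in knockout and 1343 in wildtype skin for type 1, where 8 of 12 were below the floor in both, and to 333 and 524 on type 2. The endothelial gene Eng had a log2 ratio of -0.92 and Pecam1 one of -0.74 on type 1, and on type 2 Esam stood at -0.19. Schwann cell markers summed to 5703 in knockout and 5358 in wildtype on type 1, with a median log2 ratio of -0.14. The receptor Erbb3, chosen after its value was seen, read 3263 in knockout and 2607 in wildtype, and the other 9 summed to 2440 and 2751. Pmp22 was at least 2.51-fold lower, with a log2 ratio of -0.96 under spike-in scaling and of 0 under a 60th percentile floor, and none was 2-fold higher. On type 2 only Sox10 and Ngfr were measured, and they summed to 1200 and 1206. Sox10 had a log2 ratio of 0.17 there and of -0.14 on type 1. Ngfr read 24.6 in knockout, below the floor, and 161 in wildtype. Skeletal muscle markers summed to 1159 in knockout and 1290 in wildtype, with 11 of 17 below the floor in both arrays, Acta1 and Ckm among them, and none past 2-fold. Tnni1 had a log2 ratio of -0.25 and Casq1 one of 0.035. The muscle gene Mylpf, chosen after its value was seen, read 151 in knockout and 251 in wildtype, and the other 16 summed to 1007 and 1039.

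Hair follicle markers summed to 7971 in knockout and 5515 in wildtype on type 1 and to 2283 and 1695 on type 2. On type 1 the keratin Krt17, chosen after its value was seen, read 5465 in knockout and 3334 in wildtype, and the other 10 summed to 2507 and 2181. The hair keratin Krt86 was 2.01-fold higher and Krt35 was 2.08-fold lower. Both were short of 2-fold under quantile normalization (0.98 and -0.99) and with the floor value as a pseudocount (0.83 and -0.69), Krt86 also under loess (0.96), and Krt35 also under a 60th percentile floor (0) and spike-in scaling (-0.37). The medians over the 8 and 2 markers above the floor were 0.18 and 0.39. Those 2 on type 2 were Lef1, which read 1399 in knockout and 865 in wildtype, and Foxn1, which read 885 and 830. Most of the difference between the type 2 sums was thus that of Lef1.

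**Figure D4:**
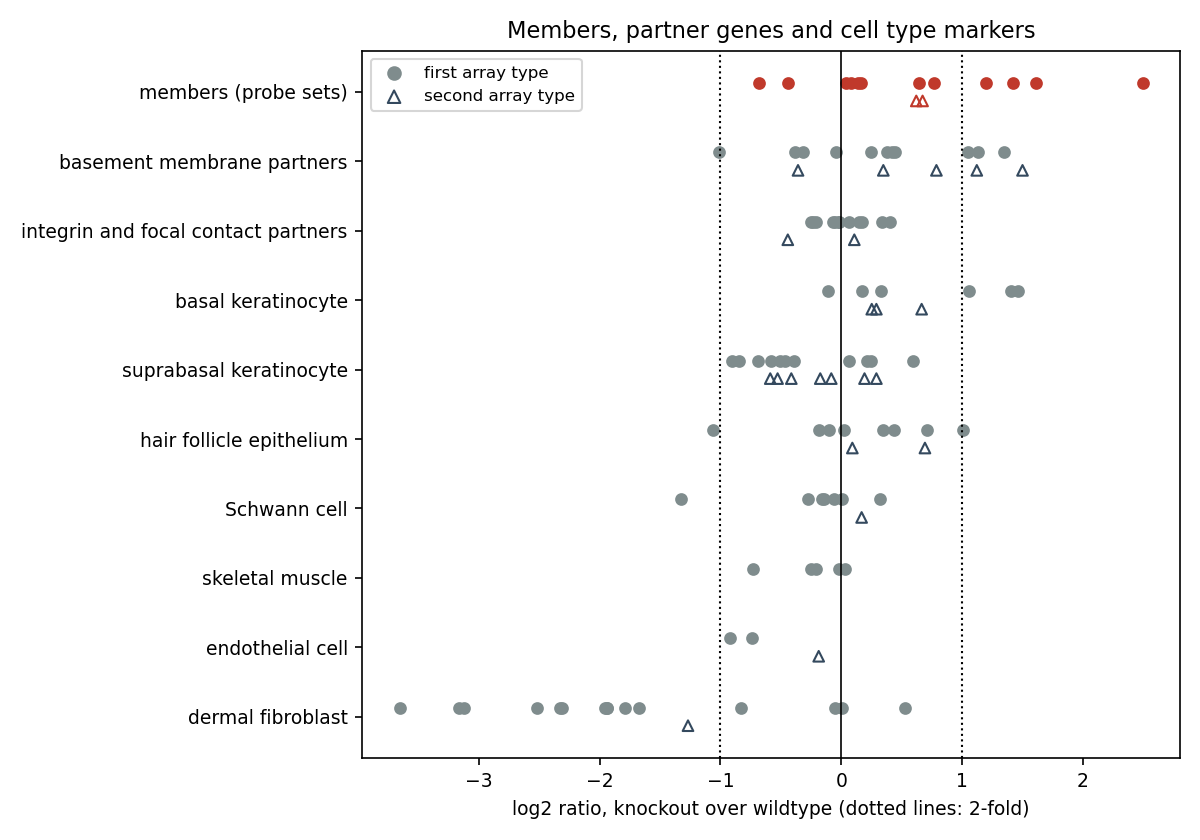
Log2 ratio of knockout over wildtype of the 14 member probe sets above the floor (red) and, below them, of each gene above the floor in the partner and cell type lists, on the first (filled circles) and second (open triangles) array type, with the 2-fold limits dotted. Basement membrane partners and basal keratinocyte markers reach past the upper limit, integrin and focal contact partners stay within both limits, and most dermal fibroblast markers lie beyond the lower one.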

How the data were processed

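The authors' deposited values are intensity on a linear scale, which MAS5 produced, per the submitters' processing notes. Version, scaling target and detection calls of MAS5 were unspecified (not given in the sources used here). Per array type, the 66 control probe sets aside, 12422 and 12411 probe sets remained. The 2 arrays were set to an equal 2% trimmed mean. For the ratios only, signals below the mean of the arrays' 40th percentiles were raised to that floor. Knockout over wildtype was expressed as a log2 ratio. With 1 signal at the floor the ratio is a bound. "Above the floor" means a mean log2 signal above it. The number of arrays limits the precision: with 1 array per genotype and type there is no replicate error and no test, and the rule of size was 2-fold.

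Genes were named from the platform annotation, and list symbols were brought up to date by gene identifier from RefSeq. Of the lists, members at least 2-fold higher or lower on a type are named (up to 6), or otherwise the 2 brightest. Further list genes were named after their values were seen. Members, lists, alternatives and motifs were chosen with earlier results of these data known. The scaling and ratio steps, checked on simulated data, used Python 3.11.15, pandas 2.3.3 and scipy 1.17.1, and loess used statsmodels 0.14.6 (span 0.4). The alternatives changed the scaling, the floor, the probe sets or the rule of size.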

Additional observations from a re-analysis of the deposited data

How the results depend on the processing

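Of the 126 recomputed log2 ratios of the 14 member probe sets above the floor, 116 kept their direction and their side of 2-fold. Itga3 probe set 104211_at stood at 0, with no direction, under the 60th percentile floor. Some settings could hardly change a ratio, so the 116 overstate the stability. Trimmed means of the deposited values were already 500.341 and 500.379 on type 1, and 500.185 and 500.188 on type 2. Setting the median log2 ratio to 0 shifted ratios by only 0.014 and 0.0038. The 20th percentile floor changed only Lamb3 161188_f_at, from 2.50 to 2.76. The counts of member probe sets on type 1 were 4 higher and 0 lower under the main setting. They were 6 and 1 under a 1.5-fold rule, 2 and 0 under a 3-fold rule, and 6 and 0 under spike-in scaling. With the floor at the 60th percentile they were 3 and 0. Without probe sets whose suffix marks shared sequence they were also 3 and 0. On type 2, 2 were higher under spike-in scaling and 2 under a 1.5-fold rule, in place of 0. The member medians moved to 1.09 and 1.30 under spike-in scaling. Sign changed in 4 log2 ratios: those of Cd151 161823_r_at (0.0099) and Itga3 104211_at (0.25) under spike-in scaling, and that of Itgb4 under quantile normalization (-0.0073) and loess (-0.029). Lamb3 161188_f_at was at 0.88, short of 2-fold, under a 60th percentile floor. The counts over all probe sets above the floor moved further. On type 1, 103 higher and 131 lower became 1411 and 46 under spike-in scaling (96.8% higher in place of 44.0%), 410 and 634 under a 20th percentile floor, 39 and 36 under a 60th percentile floor, 47 and 63 with the floor value as pseudocount, 485 and 520 under a 1.5-fold rule and 16 and 46 under a 3-fold rule. On type 2, 171 and 210 became 1362 and 54 (96.2% higher in place of 44.9%), 683 and 756, 36 and 55, 64 and 101, 679 and 770, and 31 and 48 in the same order. Spike-in scaling and the floor act by construction, since one shifts every ratio and the other sets how many dim probe sets can pass. No paired analysis was possible because the ratios come from no test and each type holds 1 array per genotype, and for the same reason no array could be left out. Dim probe sets are limited by the floor, below which a signal has no order.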
